A study of Mus musculus with 4 samples.

Results

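Interferon response and antigen presentation genes were examined in mouse embryonic stem cells that lacked a subunit of lactate dehydrogenase or were given an inhibitor. The set holds 36 genes named by symbol, of 25170 gene symbols in each deposited table, and all 36 were found. It was split by role into 10 antigen presentation genes and 26 antiviral and interferon signalling genes. Summaries use the 22 members that reached 1 FPKM in at least 1 library, 9 of the first kind and 13 of the second, out of 13142 genes that did so in all. FPKM is a read count per gene scaled by transcript length and library depth, so levels may also be set side by side between genes.

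By its title the study concerns Ldha, lactylation of the histone deacetylase Hdac1 and the 2-cell state, an expression programme of the early embryo. There were 4 libraries, 1 per group. SO was wild-type mouse embryonic stem cells under a treatment that the labels call SO and the series text describes as an inhibitor. Its compound, dose and length are not given in the labels. Ldha_KO carried a knockout of Ldha and Ldhb_KO a knockout of Ldhb. The labels do not say how the alleles were made or from how many clones the cells came. WT was the wild-type E14 line. All 4 were grown on gelatin in medium with serum and LIF, no interferon or virus is named in the labels, and polyadenylated RNA was sequenced.

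Interferons made by a cell that senses viral nucleic acid act back on it and its neighbours. They bind surface receptors, and transcription factors that include Stat2 and Irf9 then switch on antiviral genes, many of them through a promoter element called the ISRE (interferon-stimulated response element). The same signals raise the MHC class I pathway, in which proteasomes cut proteins to peptides, the Tap1 and Tap2 transporter carries these into the endoplasmic reticulum, and class I molecules show them at the cell surface. Embryonic stem cells are known for low class I levels and a weak response to interferon.

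Since each group had a single library, no value has an error or a replicate check, no test could be made, and each difference compares libraries rather than conditions. Differences are of log2(FPKM + 1), which understates changes of low genes, and a gene was called higher or lower where its difference reached 1, or 2-fold. The 3 comparisons with WT share that library. The targeted genes followed the labels: Ldha was at 1711 FPKM in SO, 154 in Ldha_KO, 2237 in Ldhb_KO and 1774 in WT, and Ldhb at 139 in SO, 158 in Ldha_KO, 5.74 in Ldhb_KO and 76.5 in WT. All 6 markers of embryonic stem cells stood above 100 FPKM in each library, between 124 and 1330.1. The deposited values summed to between 471595 and 526316 per library, highest in WT. By the steps of low values the 4 depths lay within 1.05-fold of WT, and depth itself, read roughly from those steps, was 12000000 to 13000000 reads in WT. The value of 1 read kept a nearly fixed ratio between SO and WT over genes, with a span of 0.0232%, but spanned 0.698% in Ldha_KO and 0.635% in Ldhb_KO against WT. A difference in handling between the knockouts and WT cannot be told apart from the knockouts.

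Among the 22 members kept, the antigen presentation genes on balance lay above WT, led by Tap1 and B2m. The kept antiviral and signalling genes lay near or below it before any rescaling. Members below 1 FPKM are not part of this, and their sum was lowest in WT. In SO, 1 of the 22 members was higher (Tap1) and 0 were lower, against 2.69% of all genes higher and 0.472% lower. In Ldha_KO, 3 were higher (Tap1, B2m and Psmb9) and 2 lower (Irf1 and Ddx58), against 2.65% and 1.06% of all genes. In Ldhb_KO, 4 were higher (Tap1, Tap2, B2m and Psmb9) and 0 lower, against 3.36% and 1.09%. Every gene called higher was an antigen presentation member, and each gene called lower was a signalling factor or sensor; with a pseudocount of 0.1, Psmb10 of the antigen presentation group also fell in Ldha_KO, at -1.02. The SO count, 4.55% of the members, is 1 gene and near the share of all genes, while the higher members made up 13.6% in Ldha_KO and 18.2% in Ldhb_KO. These counts are of few genes, and 2 of the 22, Tap1 and Nlrc5, reached 1 FPKM only in libraries other than WT. The members and thresholds were also chosen with earlier results of these data known, so the shares are no test of an excess.

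The medians of the 2 kinds of members differed, by amounts that depended on the settings. The median difference of the 9 antigen presentation genes was 0.26 in SO, 0.30 in Ldha_KO and 0.83 in Ldhb_KO against WT. The SO median was 0.04 with a filter of 5, 0.15 with no filter and 0.51 with a pseudocount of 0.1. In the main setting it is the value of Nlrc5. Nlrc5 and Tap1 passed the filter only through libraries other than WT, so the filter itself placed both above WT in at least 1 library. None of the antiviral and signalling genes was kept in this way. Against WT, that of the 13 antiviral and signalling genes was -0.13 in SO, -0.31 in Ldha_KO, and -0.10 in Ldhb_KO. Without the filter these were 0.02, -0.02 and -0.01, and after rescaling each library to the WT sum 0.03, -0.17 and -0.02. Over all 13142 genes the medians were -0.04, -0.03 and -0.02 in that order. Of the antigen presentation genes 6, 7 and 7 of 9 lay above WT in SO, Ldha_KO and Ldhb_KO, and of the others 4, 1 and 5 of 13, while 45.7%, 46.8% and 47.7% of all genes did. These counts move with scaling. After rescaling to the WT sum, Tapbp, Irf1, Irf3, Ifnar1, Trim25, Ifitm2 and Bst2 crossed to above WT in SO, by 0.12 or less. Psmb10, H2-K1, Ifnar2, Ddx58 and Ifit2 stayed below it there. In Ldha_KO, Tapbp, Ifnar1, Ifnar2 and Bst2 crossed likewise, by 0.09 or less. Among all genes called, those higher made up 85.1% in SO, 71.5% in Ldha_KO and 75.5% in Ldhb_KO. After the same rescaling the shares were 91.9%, 83.3% and 86.4%. RNA was taken from whole cultures, so a difference in the share of cells that express a gene cannot be told apart from a difference in RNA per cell.

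**Figure D1:**
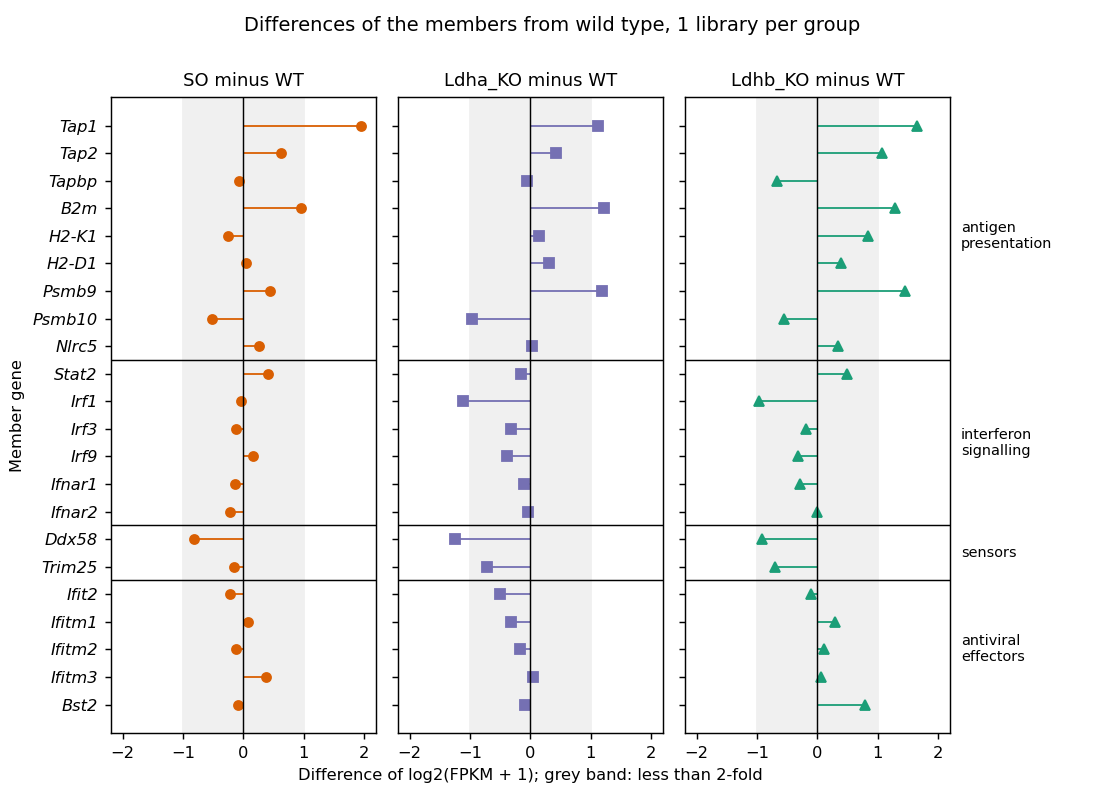
Difference of log2(FPKM + 1) from WT (horizontal axis) for the 22 members that reached 1 FPKM, in panels for SO, Ldha_KO and Ldhb_KO, with 1 library per group and the grey band marking less than 2-fold. Points beyond the band on the right are Tap1 in each panel, B2m and Psmb9 in both knockouts and Tap2 in Ldhb_KO; those on the left are Irf1 and Ddx58 in Ldha_KO.

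Tap1 showed the largest difference among the 22 members. It encodes a subunit of the peptide transporter, and its level was 6.59 FPKM in SO, 3.27 in Ldha_KO and 5.15 in Ldhb_KO, against 0.965 in WT. The WT library was thus the lowest by a wide margin, and the ratios to it were 6.83 in SO, 3.39 in Ldha_KO and 5.34 in Ldhb_KO. On the log2(FPKM + 1) scale the differences were 1.95, 1.12 and 1.65. A rough conversion of FPKM to reads, by the longest coding transcript, puts the Tap1 values at about 254 reads in SO, 120 in Ldha_KO, 200 in Ldhb_KO and 36 in WT, so none rests on a handful of reads.

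Tap2, the partner subunit, had 2.58 FPKM in SO, 2.14 in Ldha_KO and 3.89 in Ldhb_KO, against 1.33 in WT. WT was again lowest, and only the difference in Ldhb_KO, 1.07, reached 2-fold; it was 0.62 in SO and 0.43 in Ldha_KO. The level of Tap1 divided by that of Tap2 was 2.56 in SO, 1.53 in Ldha_KO and 1.33 in Ldhb_KO, against 0.725 in WT. The balance between these partner transcripts therefore lay on the Tap1 side in all but the WT library.

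Psmb9 encodes an inducible catalytic subunit of the proteasome and lies head to head with Tap1. Its level was 3.15 FPKM in SO, 5.98 in Ldha_KO and 7.34 in Ldhb_KO, against 2.06 in WT. Both knockouts stood above SO and WT, with differences from WT of 1.19 in Ldha_KO and 1.45 in Ldhb_KO, and 0.44 in SO. The order of the libraries differed from that of Tap1, which was highest in SO: Tap1 divided by Psmb9 was 2.09 in SO, 0.546 in Ldha_KO, 0.702 in Ldhb_KO and 0.469 in WT.

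The stretch between the starts of Tap1 and Psmb9 is shown because the neighbours share it as a promoter region and were both called in the knockouts. It covers the RefSeq promoter window of Tap1, 250 bases before to 50 after its start, at chr17:34187306-34187605 on the plus strand of GRCm38.p6, matched by symbol, while the study used mm9. Capitals mark the 225 bases between the 2 starts, and the windows of the genes overlap in 275 bases.
Tap1: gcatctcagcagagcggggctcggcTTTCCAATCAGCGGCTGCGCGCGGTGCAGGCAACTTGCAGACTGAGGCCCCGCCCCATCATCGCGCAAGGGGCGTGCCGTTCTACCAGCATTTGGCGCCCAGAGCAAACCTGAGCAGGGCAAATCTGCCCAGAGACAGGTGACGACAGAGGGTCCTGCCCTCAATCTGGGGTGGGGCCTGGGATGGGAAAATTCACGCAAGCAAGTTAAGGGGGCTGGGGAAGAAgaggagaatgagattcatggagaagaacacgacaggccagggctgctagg
No ISRE core, taken here as the block GAAA, any 2 bases and the block GAAA again, and no match of the GAS motif TTCNNNGAA (the gamma-activated site) was found in this window on either strand. That says only that these letters are not in it.

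B2m encodes beta-2 microglobulin, the light chain of every classical class I molecule. Its level was 43.7 FPKM in SO, 53.2 in Ldha_KO and 55.3 in Ldhb_KO, against 22.2 in WT. WT was the lowest library, and the differences of 1.23 in Ldha_KO and 1.28 in Ldhb_KO passed 2-fold. That in SO was 0.95, just short of it, and reached 1.01 after rescaling by the median ratio and 1.10 after rescaling to the WT sum. The heavy chain H2-K1 had 22.9 FPKM in SO, 30.5 in Ldha_KO and 50.03 in Ldhb_KO, against 27.6 in WT. It was not called in any comparison, with Ldhb_KO the highest at a difference of 0.83. The heavy chain H2-D1 had 31.0 FPKM in SO, 37.5 in Ldha_KO and 39.7 in Ldhb_KO, against 30.2 in WT, differences of 0.04, 0.30 and 0.38. Light chain per heavy chain, B2m divided by the sum of H2-K1 and H2-D1, was 0.811 in SO, 0.782 in Ldha_KO and 0.617 in Ldhb_KO, against 0.383 in WT. The heavy chains have near-identical copies that can share reads, so their single values are uncertain.

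The B2m promoter is printed because it is the one antigen presentation promoter, of 8 found in the RefSeq table, that holds an ISRE core. It lies at chr2:122147437-122147736 on the plus strand of GRCm38.p6, and capitals mark the match, whose first base is at -139, counted from the annotated start as +1.
B2m: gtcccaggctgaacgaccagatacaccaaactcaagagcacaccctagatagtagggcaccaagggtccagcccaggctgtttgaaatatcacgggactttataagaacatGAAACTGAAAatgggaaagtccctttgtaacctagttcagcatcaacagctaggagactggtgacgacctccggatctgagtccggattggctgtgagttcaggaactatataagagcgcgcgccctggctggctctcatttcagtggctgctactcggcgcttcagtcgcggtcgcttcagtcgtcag
A match of letters is a description of the window and not evidence of a factor bound there.

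The remaining antigen presentation genes, whose values are given here after they were seen, were called in no comparison. Psmb10, another inducible proteasome subunit, had 15.7 FPKM in SO, 11.3 in Ldha_KO and 15.2 in Ldhb_KO, against 22.9 in WT. It was highest in WT, with differences of -0.52, -0.96 and -0.56, and that in Ldha_KO became -1.02 with a pseudocount of 0.1. Tapbp, or tapasin, which bridges the transporter and class I molecules, had 12.2 FPKM in SO, 12.4 in Ldha_KO and 7.71 in Ldhb_KO, against 12.9 in WT. Ldhb_KO alone stood apart there, at a difference of -0.67. Nlrc5, a transactivator of class I genes, lay between 0.731 and 1.20 FPKM in all 4 libraries. Psmb8, the third inducible subunit and the neighbour of Tap1 on its other side, stayed between 0.0737 and 0.156 FPKM, in the ratio of 1, 2, 1 and 1 reads in SO, Ldha_KO, Ldhb_KO and WT.

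Set against the constitutive subunits that they replace in the immunoproteasome, the inducible subunits were minor transcripts. Psmb9 amounted to 1.60% of the level of Psmb6 in SO, 3.09% in Ldha_KO and 3.79% in Ldhb_KO, against 0.838% in WT. Psmb10 amounted to 7.13% of Psmb7 in SO, 5.26% in Ldha_KO and 5.94% in Ldhb_KO, against 7.73% in WT. Psmb8 was at most 0.134% of Psmb5 in any library. Relative to its counterpart Psmb9 was lowest in WT and Psmb10 highest in WT, so the inducible subunits did not move as a set.

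**Figure D2:**
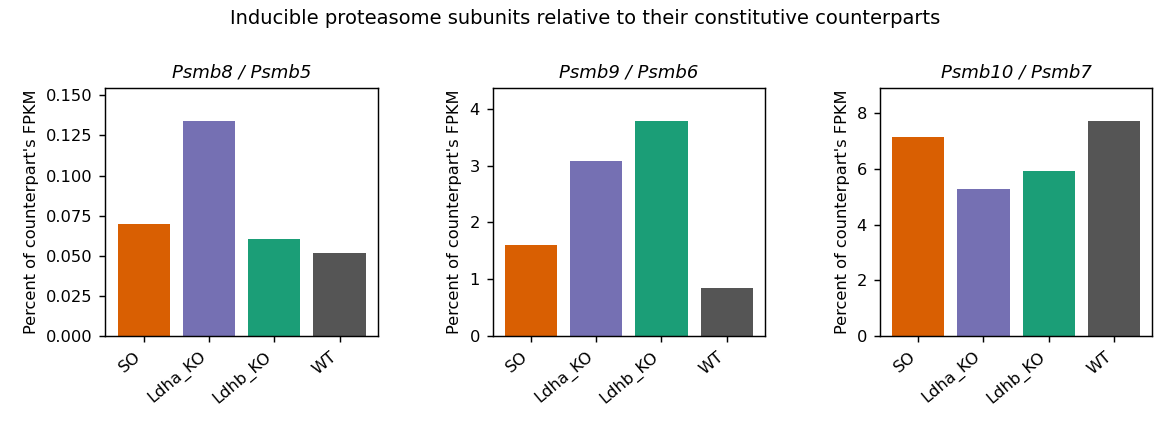
Level of each inducible proteasome subunit as a percent of the FPKM of its constitutive counterpart, with bars from 0 for SO, Ldha_KO, Ldhb_KO and WT, 1 library each, on a separate scale per panel. Psmb9 is lowest in WT at 0.838% and highest in Ldhb_KO at 3.79%, while Psmb10 is highest in WT at 7.73%.

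Other cell types in the cultures would also carry class I genes, so their markers are given beside these results. The 10 markers of fibroblasts or feeder cells summed to 47.8 FPKM in SO, 42.1 in Ldha_KO, 52.3 in Ldhb_KO and 50.1 in WT, most of it Thy1, and Lum and Dcn were listed at 0 throughout. Pdgfrb from this list was at 3.35 FPKM in SO, 2.80 in Ldha_KO and 3.63 in Ldhb_KO, against 0.949 in WT, an order with WT lowest as for Tap1. The 8 blood cell markers summed to 105 FPKM in SO, 111 in Ldha_KO, 88.2 in Ldhb_KO and 86.3 in WT, nearly all of it Laptm5 and Cd68. Of these blood markers, Tyrobp was listed at 0 throughout and Ptprc stayed at or below 0.0904 FPKM. Laptm5 was at 70.9 FPKM in SO, 73.5 in Ldha_KO and 33.7 in Ldhb_KO, against 49.7 in WT. Cd68 was at 32.3 FPKM in SO, 34.9 in Ldha_KO and 52.5 in Ldhb_KO, against 35.3 in WT. The 4 endothelial markers summed to 48.1 FPKM in SO, 51.1 in Ldha_KO, 43.0 in Ldhb_KO and 36.9 in WT, with Cdh5 at or below 0.240. Most of the sum was Pecam1, at 36.6 FPKM in SO, 41.3 in Ldha_KO and 35.9 in Ldhb_KO, against 31.0 in WT. Tek from this list was at 10.8 FPKM in SO, 8.96 in Ldha_KO and 6.83 in Ldhb_KO, against 5.37 in WT, again with WT lowest. Kdr from the same list was instead lowest in Ldhb_KO. It was at 0.588 FPKM in SO, 0.591 in Ldha_KO and 0.199 in Ldhb_KO, against 0.445 in WT. The part of other cells in the differences was not tested.

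Among the signalling genes, the clearest difference was in Irf1, a transcription factor that activates class I and other interferon genes. Its level was 19.9 FPKM in SO, 8.82 in Ldha_KO and 9.90 in Ldhb_KO, against 20.3 in WT. SO and WT stood close together above both knockouts, with differences from WT of -0.03 in SO, -1.12 in Ldha_KO and -0.97 in Ldhb_KO. The call in Ldha_KO was narrowly lost, at -0.99, after rescaling to the WT sum, and Ldhb_KO was called at -1.03 with a pseudocount of 0.1. B2m and Psmb9 were called higher in both knockouts, and in SO, where Irf1 was close to WT, their differences were 0.95 and 0.44. Any link between Irf1 and these genes was not tested.

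The Irf1 promoter is shown as the one of these lower genes that holds the GAS motif, an element of promoters that answer to interferon gamma. Its window is chr11:53769764-53770063 on the plus strand of GRCm38.p6, and capitals mark the match, which begins at -90.
Irf1: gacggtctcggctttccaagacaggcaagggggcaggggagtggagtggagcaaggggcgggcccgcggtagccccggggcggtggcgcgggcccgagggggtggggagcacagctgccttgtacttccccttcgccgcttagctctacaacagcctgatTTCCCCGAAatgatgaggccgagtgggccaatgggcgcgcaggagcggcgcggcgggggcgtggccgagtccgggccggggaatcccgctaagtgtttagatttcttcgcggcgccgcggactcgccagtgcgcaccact
The GAS motif occurred in 8 of the 31 member promoters found, 25.8%, against 9.55% of the 27025 promoters in the table. The members were named for their part in the interferon response, so this share is no result about the libraries.

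The receptor and the other factors were called in no comparison. Ifnar2, a chain of the type I interferon receptor, had 11.2 FPKM in SO, 12.8 in Ldha_KO and 13.1 in Ldhb_KO, against 13.2 in WT. Its partner chain Ifnar1 lay between 7.45 and 9.35 FPKM. Irf3, which acts directly below the nucleic acid sensors, had 10.7 FPKM in SO, 9.23 in Ldha_KO and 10.3 in Ldhb_KO, against 11.8 in WT. The spread of Irf3 over all 4 libraries stayed within a difference of 0.32 from WT. Stat2 lay between 6.54 FPKM in Ldha_KO and 10.8 in Ldhb_KO, and Irf9 between 3.69 in Ldha_KO and 5.79 in SO, so these components of the interferon-activated complex were present in every library. Of the 8 signalling members, 6 reached 1 FPKM; Irf7 and Usp18 did not.

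Ddx58, or RIG-I, the sensor of viral RNA in the cytosol, was the most reduced member in Ldha_KO. Its level was 15.8 FPKM in SO, 11.4 in Ldha_KO and 14.7 in Ldhb_KO, against 28.7 in WT. WT stood above all 3 others, and the differences were -0.82 in SO, -1.26 in Ldha_KO and -0.92 in Ldhb_KO, of which that in Ldha_KO passed 2-fold. By the rough conversion these levels correspond to about 801 reads in SO, 552 in Ldha_KO, 752 in Ldhb_KO and 1391 in WT. Trim25, a ubiquitin ligase that activates RIG-I, had 61.8 FPKM in SO, 41.4 in Ldha_KO and 41.7 in Ldhb_KO, against 68.6 in WT. It was not called, although the knockouts lay together below SO and WT at differences of -0.71 and -0.70.

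The Ddx58 promoter is printed because it holds an ISRE core and the gene was called lower in Ldha_KO. Its window is chr4:40239776-40240075 on the minus strand of GRCm38.p6, and the match in capitals starts at base 3, counted from the annotated start as 1, and lies on the opposite strand.
Ddx58: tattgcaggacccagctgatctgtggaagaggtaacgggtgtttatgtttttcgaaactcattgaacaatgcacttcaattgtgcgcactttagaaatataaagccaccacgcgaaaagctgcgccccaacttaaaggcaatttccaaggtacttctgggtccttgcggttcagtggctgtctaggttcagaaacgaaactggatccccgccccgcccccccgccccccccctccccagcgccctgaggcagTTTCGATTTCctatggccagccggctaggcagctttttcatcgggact
Over all members, the ISRE core was found in 12 of the 31 promoters, 38.7%, against 3.99% of the 27025 in the table. As for the GAS motif, this share goes with the choice of members and is no result about the libraries. The 12 genes were B2m, Stat2, Ifih1, Ddx58, Ifit1, Ifit3, Isg15, Ifitm2, Ifitm3, Bst2, Rsad2 and Gbp2, of which 11 are among the 23 antiviral and signalling promoters found. Their levels ran from 0 FPKM for Isg15 to 1015 FPKM for Ifitm2, so holding the core went with no one level.

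The remaining sensors were scarce. Dhx58, or LGP2, a regulator of the RIG-I family, had 0.791 FPKM in SO, 0.624 in Ldha_KO and 0.754 in Ldhb_KO, against 0.345 in WT, or about 25, 19, 24 and 10 reads. Ifih1, or MDA5, which senses long double-stranded RNA, did not pass 0.0416 FPKM, and its values stood in the ratio of 3, 1, 0 and 1 reads in SO, Ldha_KO, Ldhb_KO and WT. Tlr3, the endosomal sensor of double-stranded RNA, lay between 0.142 and 0.331 FPKM.

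**Figure D3:**
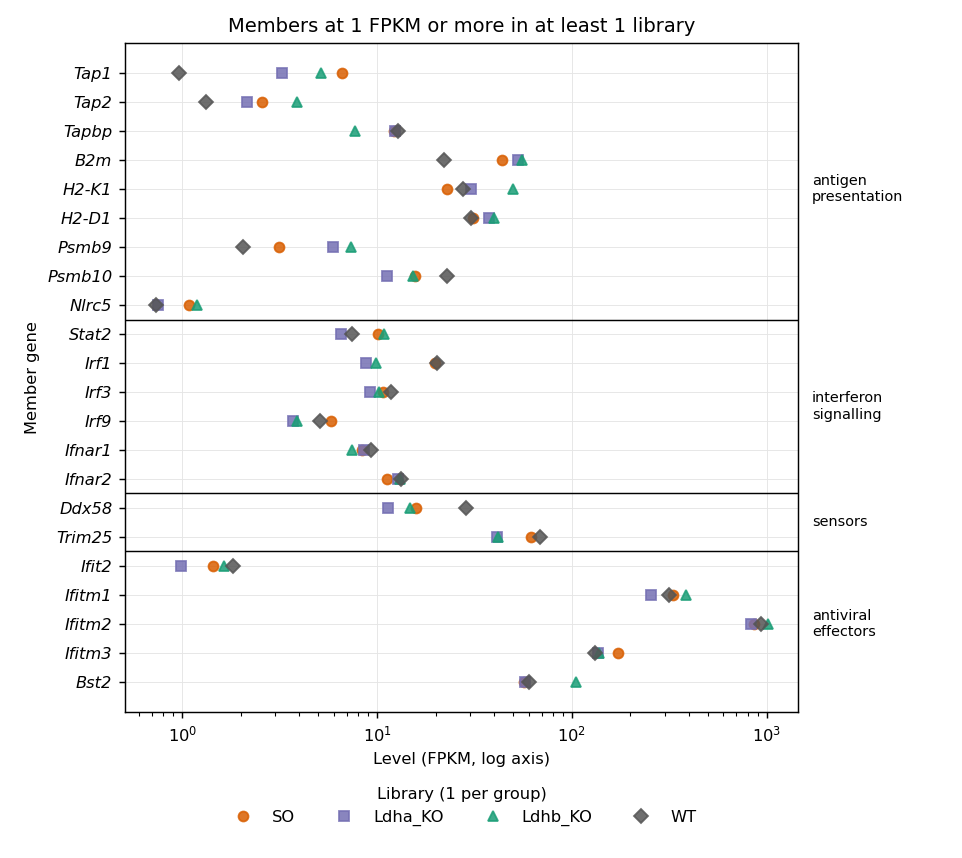
Level in FPKM (log axis) of the 22 members that reached 1 FPKM, grouped by role, with 1 point per library for SO, Ldha_KO, Ldhb_KO and WT. The Ifitm genes reach 1015 FPKM, Tap1 is at 6.59 FPKM in SO and 0.965 in WT, and Irf1 and Ddx58 lie between 8.82 and 28.7 FPKM.

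Antiviral effectors were mostly either abundant or nearly silent. The Ifitm genes encode membrane proteins that block virus entry, and together they made up 79.0% to 79.9% of the summed FPKM of all 36 members in each library. Ifitm2 had 859 FPKM in SO, 833 in Ldha_KO and 1015 in Ldhb_KO, against 939 in WT. It ranked 54th, 52nd, 48th and 55th among all genes in these libraries, and its differences from WT lay between -0.17 and 0.11. Ifitm1 had 331 FPKM in SO, 254 in Ldha_KO and 385 in Ldhb_KO, against 315 in WT. Ifitm3 had 172 FPKM in SO, 136 in Ldha_KO and 138 in Ldhb_KO, against 132 in WT. No Ifitm gene was called in any comparison.

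Bst2, or tetherin, which holds budding virus at the cell surface, is named after its values were seen. It had 56.8 FPKM in SO, 57.2 in Ldha_KO and 106 in Ldhb_KO, against 60.6 in WT. Only the Ldhb_KO library stood apart, at a difference of 0.79 that did not reach 2-fold. Ifit2, an RNA-binding effector, was between 0.989 and 1.83 FPKM. It was the one of the 3 Ifit members to pass the filter on low values.

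The other 8 effectors stayed below 1 FPKM in every library. With the 6 low members of the other roles they make 14 genes, whose median level was 0.208 FPKM in SO, 0.196 in Ldha_KO and 0.135 in Ldhb_KO, against 0.0879 in WT. Their levels summed to 3.17 FPKM in SO, 3.51 in Ldha_KO, 3.21 in Ldhb_KO and 1.40 in WT. WT had the lowest sum, but most of these values rest on few reads. Over all genes, WT also had the fewest at 1 FPKM or more, 11952 against 12376 in SO, 12396 in Ldha_KO and 12577 in Ldhb_KO. Whether the low members differ in this from other scarce genes was not tested. Isg15, the ubiquitin-like protein that is among the most strongly induced interferon genes, was listed at 0 in SO and Ldha_KO, at 0.289 FPKM in Ldhb_KO and at 0 in WT. Isg20, an RNA exonuclease, had 0.229 FPKM in SO, 0.863 in Ldha_KO and 0.397 in Ldhb_KO, against a listed 0 in WT, about 3, 12, 6 and 0 reads. Mx1, annotated as a transcribed pseudogene in the RefSeq table, had 0.320 FPKM in SO, 0.236 in Ldha_KO and 0.585 in Ldhb_KO, against 0.0304 in WT, or about 14, 10, 26 and 1 reads. In WT these 3 genes rest on about 1 read at most, and no call was made from them.

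The rest of the low members also rest on few reads, and the order of the libraries varied among them. Usp18, which removes Isg15 from proteins, stood in the ratio of 2, 1, 1 and 1 reads in SO, Ldha_KO, Ldhb_KO and WT. Ifit3 stood at 2, 1, 1 and 4 in the same order, and Oasl2, of the oligoadenylate synthetase family, at 1, 1, 2 and 1. Each of these is a ratio of values to small whole numbers, so the true reads may be multiples of them. Ifit1 did not pass 0.0313 FPKM, and Rsad2, or viperin, lay between 0.240 and 0.443 FPKM. Irf7, an amplifier of the interferon response, was at 0.400 FPKM in SO, 0.298 in Ldha_KO, 0.412 in Ldhb_KO and 0.0988 in WT. Gbp2, a guanylate-binding protein, was at 0.388 FPKM in SO, 0.340 in Ldha_KO, 0.129 in Ldhb_KO and 0.101 in WT.

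The Isg15 promoter is shown because its window holds more ISRE cores than the others printed, while the gene was listed at 0 in 3 of 4 libraries. It lies at chr4:156200769-156201068 on the minus strand of GRCm38.p6, and capitals mark 3 overlapping matches that begin at -78, -72 and -66.
Isg15: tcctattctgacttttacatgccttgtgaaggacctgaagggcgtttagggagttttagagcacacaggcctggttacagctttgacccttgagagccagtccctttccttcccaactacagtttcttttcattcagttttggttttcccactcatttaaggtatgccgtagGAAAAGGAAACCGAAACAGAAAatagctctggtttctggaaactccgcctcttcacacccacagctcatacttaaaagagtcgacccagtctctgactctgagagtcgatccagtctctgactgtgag

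**Figure D4:**
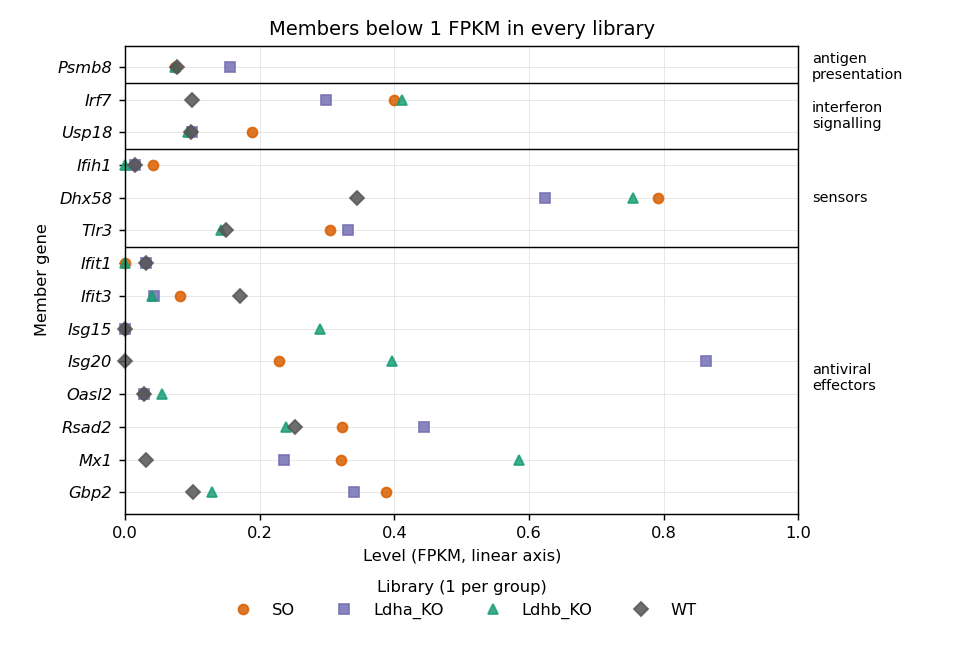
Level in FPKM (linear axis) of the 14 members below 1 FPKM in every library, with 1 point per library for SO, Ldha_KO, Ldhb_KO and WT. Most points lie below 0.5 FPKM; Dhx58 at 0.791 in SO and Isg20 at 0.863 in Ldha_KO are the highest of their libraries, and Isg15 is at 0 but in Ldhb_KO.

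Between the knockouts no member reached 2-fold, with 0 of 22 higher and 0 lower in Ldha_KO, against 1.67% and 1.54% of all genes. The median difference, Ldha_KO minus Ldhb_KO, was -0.32 for antigen presentation genes and -0.15 for the others, and -0.02 over all genes. Of the 22 members 20 lay below 0 and 2 above it. Those above made up 9.09% of the members, against 47.8% of all genes. After rescaling to the WT sum, Ifitm3, at 0.004, and Trim25, at 0.01, also lay above 0. Bst2 had the lowest difference, -0.87, then H2-K1 at -0.70, Stat2 at -0.65 and Tap2 at -0.64. Tapbp, at 0.62, and Ifnar1, at 0.18, were the members higher in Ldha_KO without rescaling. In order of level, Ldhb_KO was the highest of the 4 libraries for 10 of the 22 members, against 28.3% of all genes.

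Other genes of the pathway were read from a list of 60, of which 50 reached 1 FPKM. In SO 1 was higher and 0 lower, against 2.69% and 0.472% of all genes, and in Ldha_KO 2 and 1, against 2.65% and 1.06%. In Ldhb_KO 4 were higher and 1 lower, against 3.36% and 1.09%, and between Ldha_KO and Ldhb_KO 2 and 1, against 1.67% and 1.54%. The list's median differences were 0.15 in SO, 0.06 in Ldha_KO and 0.09 in Ldhb_KO against WT, and -0.01 between the knockouts. Most of the list was thus not called. Ifnb1, the gene of interferon beta, was listed at 0 in all 4 libraries.

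The 6 genes of this list with the largest differences were not all called in the same direction or library. Cxcl10, H2-Ab1, Ifi27 and Irf8 were each lowest in WT, while Socs3 was lowest in Ldha_KO and Irgm1 in Ldhb_KO. Socs3, a feedback inhibitor of LIF and cytokine signalling, had 66.9 FPKM in SO, 16.0 in Ldha_KO and 125 in Ldhb_KO, against 76.3 in WT. It was called lower in Ldha_KO, at -2.18 against WT and -2.89 against Ldhb_KO. Cxcl10, an interferon-induced chemokine, had 2.29 FPKM in SO, 5.11 in Ldha_KO and 2.03 in Ldhb_KO, against 0.800 in WT. It was called higher in Ldha_KO, at 1.76 against WT and 1.01 against Ldhb_KO. H2-Ab1, a chain of MHC class II, had 5.27 FPKM in SO, 4.92 in Ldha_KO and 8.60 in Ldhb_KO, against 2.00 in WT, and was called in SO at 1.06 and in Ldhb_KO at 1.68. Class II molecules present peptides taken up from outside the cell. Irgm1, an immunity-related GTPase, had 3.15 FPKM in SO, 2.67 in Ldha_KO and 0.370 in Ldhb_KO, against 3.33 in WT. It was called lower in Ldhb_KO against WT, at -1.66, and higher in Ldha_KO against Ldhb_KO, at 1.42. Ifi27, an interferon-induced gene, had 0.900 FPKM in SO, 3.73 in Ldha_KO and 1.71 in Ldhb_KO, against 0.679 in WT, and was called in Ldha_KO at 1.49. Irf8, a transcription factor of myeloid cells, had 2.22 FPKM in SO, 1.67 in Ldha_KO and 3.93 in Ldhb_KO, against 1.03 in WT, and was called in Ldhb_KO at 1.28.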

How the data were processed

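Polyadenylated RNA of 4 mouse embryonic stem cell libraries, 1 per group, was measured. The authors deposited 1 value per gene symbol, read here as FPKM from the values alone: they are not whole, have no common total, and the step of 1 read differs between genes. They may equally be RPKM. Per the submitters' processing notes the build was mm9 and the named tools were edgeR 3.26.8, HTSeq 0.11.2, SAMtools 1.9 and Bowtie2 2.3.4.3, with neither roles nor an annotation stated.

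The members, gene lists and thresholds were chosen with earlier results of these data known. Genes that reached 1 in any library were kept, and the difference of log2(FPKM + 1) was called at 1 in size, with no test. Genes given in full were members called in any comparison, the 3 of highest mean in each role, and up to 6 other pathway genes by largest difference. Psmb10, Tapbp, Bst2, Ifnb1 and the members below 1 FPKM were added after their values were seen, as were Pdgfrb, Thy1, Tek, Kdr, Laptm5, Cd68 and Pecam1. The code that makes the calls was checked on simulated data with known answers, which says nothing of the error of any call here.

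The value of 1 read relative to another library is the median ratio over genes below 0.2 in both whose ratio lay within 10% of 1, and its span runs from the 10th to the 90th percentile. Rough depth used genes with 1 transcript in GENCODE vM21, where 73 of 298 fell in the commonest depth bin, with 1 read on 1 kb worth about 0.08 FPKM. Rough reads divide by the longest coding transcript and have no error. Ratios of reads took whole numbers up to 4 within 2.0%. The true depth is unknown, so no counting interval was computed.

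Promoters came from RefSeq (GRCm38.p6), matched by symbol for 31 of 36 members, from 250 bases before to 50 after the start, and both strands were searched. Alternatives were a pseudocount of 0.1, no filter, a filter of 5, rescaling to the summed value of WT or by the median ratio, and leaving out members with near-identical copies. Python 3.11.15, pandas 2.3.3, NumPy 2.4.6 and Matplotlib 3.10.9 were used.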

Additional observations from a re-analysis of the deposited data

How the results depend on the processing

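No paired analysis was possible because each group has 1 library, and for the same reason no library could be left out of a group. Members called higher in SO against WT numbered 2, in place of 1, after rescaling to the WT sum or by the median ratio, B2m being added. Members lower in Ldha_KO numbered 1, in place of 2, after rescaling to the WT sum, where Irf1 was lost, and 3 with a pseudocount of 0.1, where Psmb10 was added. Members higher in Ldhb_KO numbered 3, in place of 4, with a filter of 5, which removes Tap2. Members lower in Ldhb_KO numbered 1, in place of 0, with a pseudocount of 0.1, where Irf1 was added. Rescaling to the WT sum raises FPKM by 0.16 in SO, 0.14 in Ldha_KO and 0.12 in Ldhb_KO on the log2 scale, and differences of log2(FPKM + 1) by less for low genes. No called difference of a member changed sign under any of the 6 alternatives. Over all genes, 353 were higher and 62 lower in SO, 348 and 139 in Ldha_KO, 441 and 143 in Ldhb_KO, and 219 and 202 for Ldha_KO against Ldhb_KO. With a pseudocount of 0.1 these counts were 808 and 182, 868 and 321, 1141 and 311, and 419 and 574. A filter of 5 gave 234 and 40 in SO and 262 higher in Ldhb_KO. Below 1 FPKM most members rest on few reads, which limits what their order can show.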

Other observations

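Genes around Tap1 on chromosome 17, chosen after their values were seen, include class II genes that are no members. In the gene order of the RefSeq table, 10 protein-coding genes run from H2-DMa to H2-Aa, with Psmb9, Tap1, Psmb8 and Tap2 among them, and 6 of the 10 reached 1 FPKM. H2-DMa and H2-DMb1 encode the chains of the molecule that loads peptides onto class II. H2-DMa was at 5.29 FPKM in SO, 7.76 in Ldha_KO and 5.36 in Ldhb_KO, against 2.98 in WT. H2-DMb1 was at 2.16 FPKM in SO, 6.82 in Ldha_KO and 4.92 in Ldhb_KO, against 2.11 in WT, so SO and WT were close and the knockouts stood above both. H2-Aa, the partner chain of H2-Ab1, did not pass 0.246 FPKM, H2-DMb2 did not pass 0.179, and H2-Ob was listed at 0 in all 4 libraries.

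Nonclassical and Qa-type class I genes were also read after the fact, with the caution that they are near-identical copies that share reads. H2-Q4 was at 8.02 FPKM in SO, 11.5 in Ldha_KO and 13.5 in Ldhb_KO, against 6.88 in WT. H2-Q7 was at 2.65 FPKM in SO, 4.85 in Ldha_KO and 7.49 in Ldhb_KO, against 1.30 in WT. WT was the lowest and Ldhb_KO the highest library for this pair, as for B2m and Psmb9. H2-M5 ran the other way, at 41.5 FPKM in SO, 30.2 in Ldha_KO and 24.4 in Ldhb_KO, against 41.7 in WT. At lower levels, H2-Q6 and H2-Q9 had the same lowest and highest library as the pair, but other genes did not. H2-T22 was highest in SO, at 2.34 FPKM, and H2-Q10 was lowest in SO, at 2.29 FPKM against 2.52 in WT.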
